A study of Mus musculus with 10 samples.

Results

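The Cdx genes are the 3 mouse homologs of the fly gene *caudal*, and all 3 members (*Cdx1*, *Cdx2* and *Cdx4*) were found by name in the 32285 genes of the R1 table and by Ensembl identifier in the 27998 genes of the E14Tg2a table. They were chosen by name, and no measured value entered the choice. The study counted transcripts in single cells with a droplet method (scRNA-seq) in 10 libraries, 1 for each condition. All cells came from male mouse embryonic stem cell (ESC) lines, and 8 libraries were made from wild-type E14Tg2a cells. 2i ESC were kept without serum in LIF with the MEK inhibitor PD0325901 and the GSK3β inhibitor CHIR99021, and S+L ESC in serum plus LIF. Epiblast-like cells (EpiLC) were taken after 1, 2 and 3 days of Activin A and bFGF (d1, d2 and d3 EpiLC), and epiblast stem cells (EpiSC) after passaging with the same factors. Embryoid bodies (EB) were grown from d2 EpiLC in floating culture with BMP4, SCF, LIF and EGF and collected on day 2 or 4 (d2 and d4 EB). They contain primordial germ cell-like cells (PGCLC) among other cells. The other 2 libraries were d4 EB of wild-type R1 ESC (WT) and of the *Mll3/4* dCD line derived from them, in which the histone methyltransferases MLL3 and MLL4 are present without catalytic activity. The dCD change replaces amino acids, so counting the 3′ ends of transcripts cannot check it.

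Cdx proteins are homeodomain transcription factors known for 2 quite separate uses in the early mouse embryo. In the trophectoderm and its descendants, *Cdx2* maintains trophoblast identity, and *Elf5* and *Eomes* are its classic partners there. From gastrulation on, all members are transcribed in the posterior primitive streak and the nascent mesoderm in response to WNT and FGF signals, where they activate Hox genes of the middle of the clusters, and *Cdx1* and *Cdx2* later act again in the intestinal epithelium. The allantois, an extraembryonic mesoderm, also expresses *Cdx2*. EB grown with BMP4 hold cells that resemble both mesoderm and trophoblast, so the data allow both uses to be looked at in the same libraries.

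In GRCm38, *Cdx2* (ENSMUSG00000029646) lies on chromosome 5 from 147300805 to 147307270 on the minus strand, and *Cdx4* (ENSMUSG00000031326) on chromosome X from 103321398 to 103330592 on the plus strand. Their promoters are shown because all members were highest in the same library; the promoter table used here has 0 entries for *Cdx1*. The stretches just upstream of their annotated starts follow, 5′ to 3′ on the strand of the gene, from the RefSeq sequence of GRCm38.p6, with POU octamers (ATGCAAAT) and cAMP response elements (TGACGTCA) in capitals.
*Cdx2*, chr5:147307271-147307499, minus strand: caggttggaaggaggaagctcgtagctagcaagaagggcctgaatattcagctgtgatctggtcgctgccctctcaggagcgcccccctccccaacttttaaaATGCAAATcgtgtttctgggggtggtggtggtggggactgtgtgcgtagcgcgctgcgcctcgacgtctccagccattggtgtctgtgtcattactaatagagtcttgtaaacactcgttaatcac
*Cdx4*, chrX:103321148-103321397, plus strand: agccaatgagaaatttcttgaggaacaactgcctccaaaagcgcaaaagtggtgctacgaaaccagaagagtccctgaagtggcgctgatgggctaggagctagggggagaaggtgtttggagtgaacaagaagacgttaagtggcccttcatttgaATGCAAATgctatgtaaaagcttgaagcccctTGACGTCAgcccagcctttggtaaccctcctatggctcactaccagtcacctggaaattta

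The octamer began 126 bases upstream of the annotated start in *Cdx2* and 93 bases upstream in *Cdx4*, in both on the strand of the gene. It was present on either strand in 1.74% of the 32851 promoter windows in the table, each 250 bases before to 50 after a start. The cAMP response element of *Cdx4* began 61 bases upstream, and 1.79% of the windows held one. CCAAT had 1 match in each gene and occurred in 37.4% of windows. Neither window held the TCF/LEF letters CTTTGAT or CTTTGTT (3.73% and 5.85% of windows), the CDX letters TTTATNG (10.9%) or TATAAA (13.6%). The motifs were chosen after the values were seen, and a match describes letters and not a bound site.

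The libraries held 227 to 1699 cells and 8757170 to 22887974 UMIs (unique molecular identifiers, each counting 1 captured transcript), with a median of 11751 to 36750 UMIs per cell. For a level, the UMIs of a gene were added up over the cells of a group and expressed per 1000000 UMIs of the same cells (CPM); the ranges in parentheses are 95% intervals, exact Poisson for levels and exact binomial (Clopper-Pearson) for shares of cells. They cover counting error only. With 1 library per condition no test was possible, condition and library cannot be told apart, and a lower level in a library may come from fewer expressing cells or less RNA in each. Any pair of libraries had at most 2 cell barcodes in common. E14Tg2a and R1 libraries came from different kit versions (v2 and v3), and levels were not compared between them.

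All 3 members were at their highest in d2 EB. *Cdx2* was at 234 CPM there (226 to 242), and 466 of 537 cells (86.8%, 83.6% to 89.5%) had at least 1 UMI of it. The median cell held 5 *Cdx2* UMIs, the upper quartile was 10, and 139 cells had at least 10. In d4 EB *Cdx2* was at 25.7 CPM (22.6 to 29.1) in 115 of 368 cells, and in EpiSC at 12.3 CPM (10.5 to 14.4) in 51 of 373 cells. The intervals of these levels do not overlap, so the order d2 EB, d4 EB, EpiSC exceeds counting error. Every other E14Tg2a library was near 0, with 2 UMIs in S+L ESC, 1 UMI each in d1, d2 and d3 EpiLC, and 0 UMIs in 2i ESC. A count of 0 in its 227 cells still permits 1.32% of cells with a UMI and 0.343 CPM.

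*Cdx1* (ENSMUSG00000024619, minus strand of chromosome 18 from 61018862 to 61036199 in GRCm38) is also a direct WNT target, and it was the only member with more than 2 UMIs in ESC. It was at 7.19 CPM (5.53 to 9.20) in 48 of 227 2i ESC and at 2.77 CPM (1.84 to 4.01) in 25 of 309 S+L ESC. The ratio of S+L over 2i ESC was 0.385 (0.238 to 0.610), or -1.38 on the log2 scale, and it was -0.68 after cells had been thinned to 15374 UMIs each. In thinned cells the shares with a *Cdx1* UMI were 8.52% (5.21% to 12.99%) and 5.80% (3.42% to 9.13%), which overlap, and 4 and 16 shallower cells were left out. *Cdx1* then dropped to 2 UMIs in d1 EpiLC, 1 UMI in d2 EpiLC and 0 UMIs in d3 EpiLC and EpiSC. It was at 12.7 CPM (10.9 to 14.7) in 131 of 537 d2 EB cells and at 2.29 CPM (1.44 to 3.47) in 12 of 368 d4 EB cells. The d4 EB and S+L ESC levels could not be ordered within counting error.

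*Cdx4* was the most restricted member. It was at 19.4 CPM (17.2 to 21.8) in 133 of 537 d2 EB cells, with up to 10 UMIs in a cell. In d1 EpiLC it had 11 UMIs in 10 of 280 cells (1.0 CPM, 0.499 to 1.79), of which 2 cells kept a UMI after thinning. It had 0 UMIs in 2i ESC, S+L ESC, d2 and d3 EpiLC, EpiSC and d4 EB, where 3 counts would correspond to 0.213 CPM in d3 EpiLC up to 0.343 CPM in 2i ESC. Since EpiSC had *Cdx2* UMIs in 13.7% of cells (10.4% to 17.6%) and 0 UMIs of the other members, only *Cdx2* was detected at that stage.

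**Figure D1:**
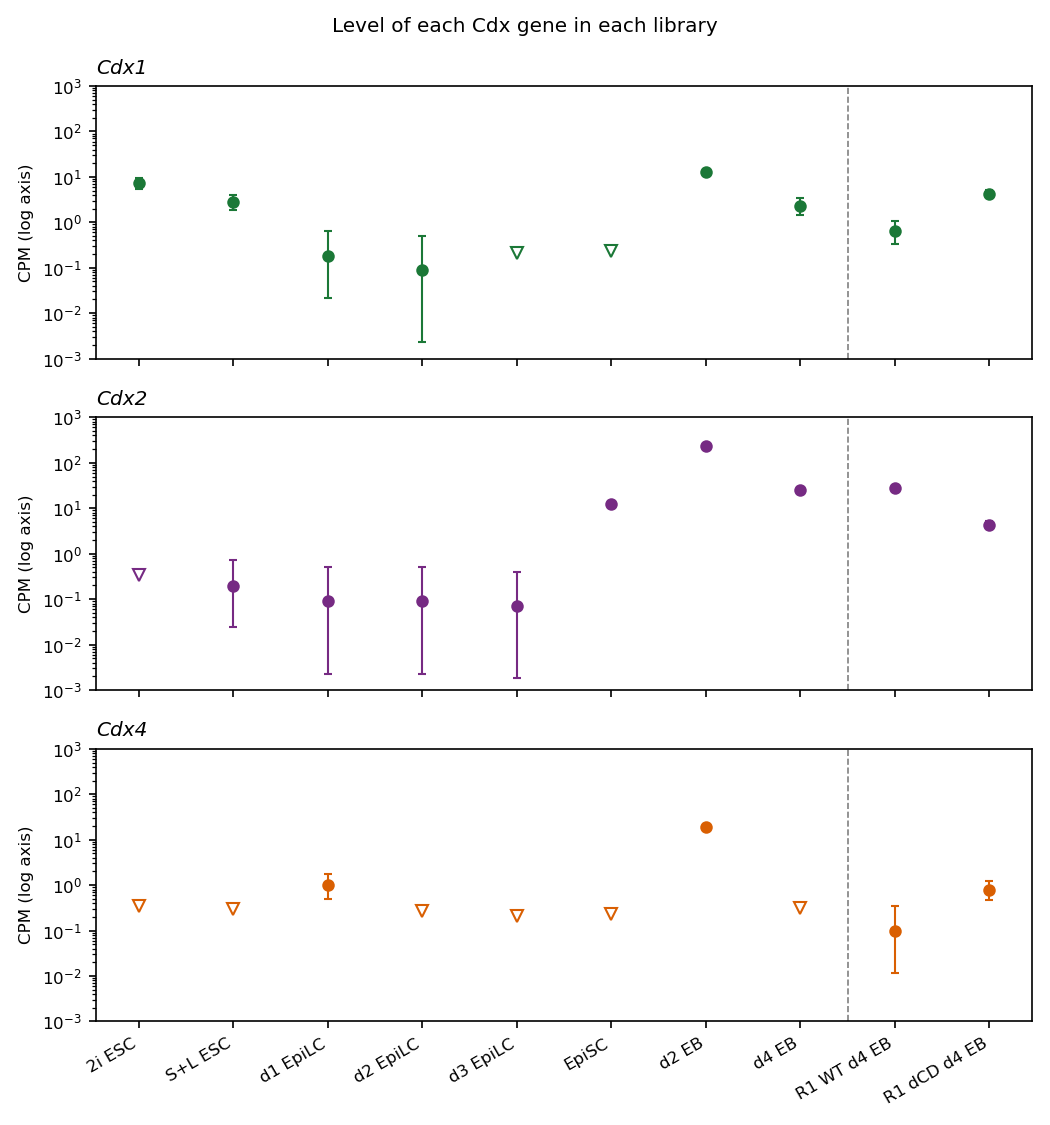
Levels of *Cdx1*, *Cdx2* and *Cdx4* in each library, in CPM on a log axis, with exact 95% Poisson intervals; open triangles mark libraries with 0 UMIs, drawn at the level that 3 counts would give, and the dashed line separates E14Tg2a from R1. The d2 EB point is the highest E14Tg2a point of each panel, and *Cdx2* reaches 234 CPM there.

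From d2 EpiLC to d2 EB, 3 of 3 members were at least 2-fold higher, a call that 13.1% of the 13744 genes with at least 10 UMIs met (log2 of the ratio of CPM + 1 of at least 1). *Cdx2* went from 1 UMI to 3422 UMIs, a ratio of 2606 with a lower bound of 467, and *Cdx1* from 1 UMI to 186, a ratio of 142 with a lower bound of 25.1. *Cdx4* was at least 72.1-fold higher, taking 3 counts for the 0 UMIs of d2 EpiLC. Hox genes, which Cdx proteins are known to activate, were higher in the same step. Of the genes of paralog groups 5 to 9, 14 of 14 counted were at least 2-fold higher, as were 10 of 11 of groups 1 to 4 and 8 of 8 of groups 10 to 13. The highest Hox gene was *Hoxd9*, which went from 0 to 105 CPM, followed by *Hoxb2* (36.3 CPM) and *Hoxb6* (36.0 CPM). Among 21 counted genes of the primitive streak and nascent mesoderm, 14 were higher and 2 lower (9.79% of all genes were at least 2-fold lower), with *T*, the streak factor, going from 0.0896 to 63.6 CPM. Of 11 extraembryonic mesoderm genes 11 were higher, among them *Hand1* with 770 CPM, and of 15 trophoblast genes 12 were higher. *Eomes* was lower (0.410 against 3.41 CPM), and *Elf5* had 0 UMIs in d2 EB. Of 10 intestinal genes 2 reached 10 UMIs, of which *Lgr5* (1.71 against 0.269 CPM) was higher and *Vil1* (0.410 against 0.717 CPM) was not past 2-fold. *Isx* and *Cdh17*, which Cdx2 is known to activate in the gut, had 0 UMIs in d2 and d4 EB.

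From d2 to d4 EB, 3 of 3 members were at least 2-fold lower, against 3.54% of the 13813 genes counted. *Cdx2* was 9.08-fold lower, *Cdx1* 5.54-fold lower and *Cdx4* at least 62.1-fold lower. In *Cdx1* 9 of the 22 UMIs of d4 EB came from a single cell, and the level was 1.36 CPM without it. The log2 ratio of *Cdx1* was -2.47, and -3.48 in thinned cells. The Hox groups divided in this step. In groups 10 to 13, 7 of 9 genes were higher, such as *Hoxd13* (13.4 against 1.77 CPM) and *Hoxc10* (34.2 against 5.80 CPM), with 9.73% of all genes at least 2-fold higher. In groups 5 to 9, 4 of 14 genes were lower, with *Hoxd9* the farthest (18.1 against 105 CPM), and only *Hoxa9* was higher (38.1 against 12.4 CPM). Of the streak genes 18 of 20 were lower.

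From d2 EpiLC to EpiSC, *Cdx2* went from 1 to 157 UMIs, a ratio of 137 with a lower bound of 24.3, against 8.47% of all genes at least 2-fold higher. Of the Hox genes of groups 5 to 9, 6 of 7 counted were higher, with *Hoxd9* at 6.43 CPM and *Hoxc9* at 3.37 CPM, and of the streak genes 14 of 18. Markers of other cells were higher as well, with 7 of 9 endoderm genes, such as *Cer1* (49.4 against 0 CPM) and *Foxa2* (46.1 against 0.538 CPM), and 7 of 12 trophoblast genes. The *Cdx2* UMIs of EpiSC were unevenly spread, with 5 cells holding at least 10 and 1 cell holding 21. EpiSC with a *T* UMI had 16.1 CPM of *Cdx2* and those without had 9.29 CPM, a ratio of 1.73 (1.25 to 2.42). The same ratio was 2.86 (2.02 to 4.00) for *Prdm1*, 2.55 (1.26 to 6.01) for *Sox2* and 0.481 (0.314 to 0.718) for *Krt7*. For *Ascl2*, *Nanos3* and *Zfp42* the interval included 1. The link was thus not particular to a streak gene. When thinned EpiSC were ordered by their *Cdx2* UMIs, the summed Hox genes of groups 5 to 9 were at 4.24 CPM in 328 cells with 0 UMIs and at 100 CPM in 25 cells with 1 to 2 UMIs. *T* was at 64.6 and 219 CPM and the summed endoderm genes at 340 and 285 CPM in the same cells. The cells with more *Cdx2* numbered 8.

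Within d2 EB the members were not spread evenly over the cells. Of the 537 cells, 48 had no Cdx UMI, 274 had UMIs of 1 member, 189 of 2 members and 26 of all 3. Cells with *Cdx4* nearly always had *Cdx2* as well (96.2%, against 83.7% of cells without *Cdx4*). Turned round, and in thinned cells, *Cdx4* was found in 22.3% of the cells with *Cdx2* and in 4.30% of those without. *Cdx1* followed *Cdx2* less: it was found in 16.4% of thinned cells with *Cdx2* and 11.8% of those without. A UMI of 1 member in a cell also depends on the capture of each transcript, so these shares describe what was detected.

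When thinned d2 EB cells were ordered by their *Cdx2* UMIs, Hox genes and mesoderm markers were higher with more *Cdx2*, and *Esx1*, *Rhox6* and *Rhox9* were lower. All UMIs of the cells entered these levels. The summed Hox genes of groups 5 to 9 were at 31.7 CPM in 93 cells without a *Cdx2* UMI, 208 CPM in 115 cells with 1 to 2, 411 CPM in 173 cells with 3 to 5 and 487 CPM in 138 cells with 6 or more. *T* was at 12.3, 71.1, 59.1 and 107 CPM over the same classes, and thus not in strict order. The mesoderm markers *Tbx4*, *Pitx1* and *Foxf1* together were at 12.6, 43.5, 120 and 122 CPM. *Esx1*, *Rhox6* and *Rhox9* together went the other way, from 135.7 over 33.9 and 21.7 to 9.08 CPM. The whole list of 16 trophoblast genes did not follow them, at 878, 940, 1291 and 1274 CPM, of which *Hand1*, also a mesoderm gene, made up 467, 639.6, 974 and 909 CPM. Listed PGCLC made up 34.4%, 21.7%, 11.6% and 10.1% of the 4 classes, and 8 PGC genes together were at 303, 239, 159 and 158 CPM. Without the PGCLC, which was looked at after seeing the data, the Hox genes of groups 5 to 9 were at 41.7, 243, 464 and 538 CPM and *Esx1*, *Rhox6* and *Rhox9* at 194.8, 42.3, 19.4 and 4.62 CPM, in 61, 90, 153 and 124 cells. *Cdx4* was at 2.46, 13.05, 29.9 and 27.8 CPM and *Cdx1* at 9.85, 17.7, 11.6 and 12.6 CPM. Cells without *Cdx2* were deeper before thinning, with a median of 33459 UMIs against 23167 to 24619 in the other classes.

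**Figure D2:**
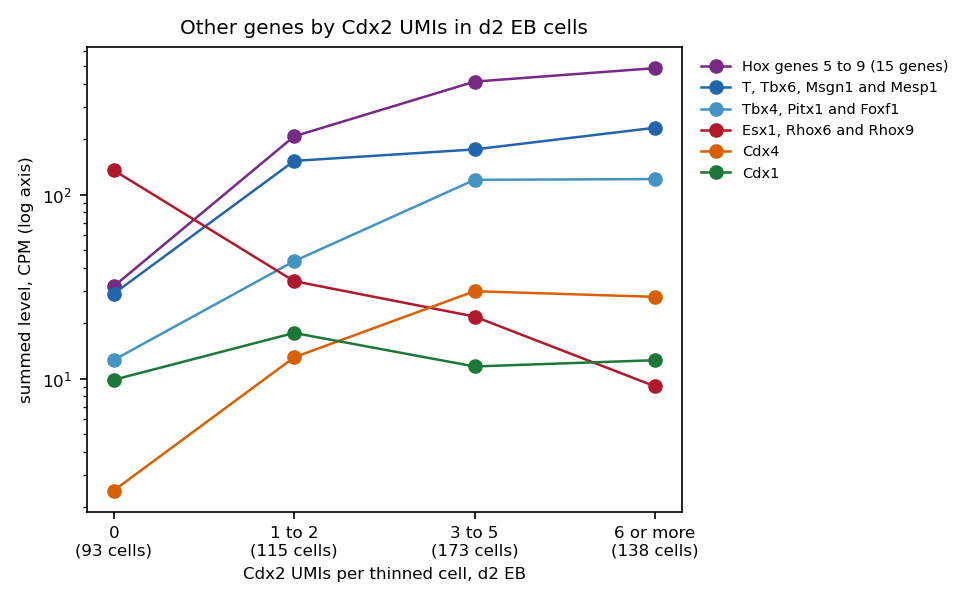
Summed levels of other genes in thinned d2 EB cells with 0, 1 to 2, 3 to 5 and 6 or more *Cdx2* UMIs, in CPM on a log axis; each point is a sum over the cells given under the axis. The Hox line climbs from 31.7 to 487 CPM while the line of *Esx1*, *Rhox6* and *Rhox9* drops from 135.7 to 9.08 CPM, and the *Cdx1* line stays between 9.85 and 17.7 CPM.

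To set trophoblast against mesoderm directly, EB cells with at least 1 UMI of *Esx1*, *Rhox6* or *Rhox9* were taken as trophoblast-marker cells, and cells listed as PGCLC in the study's supplement were left out of them. *Esx1* is a placental homeobox gene, and *Rhox6* and *Rhox9* are homeobox genes of placenta and germ cells. There were 74 such cells in d2 EB, 111 of 368 in d4 EB, 163 of 1416 in WT and 484 of 1699 in dCD. Of 14 trophoblast genes counted in d2 EB, 9 were at least 2-fold higher in these cells than in the other cells (5.78% of all genes), among them *Krt7* (40.3 against 2.29 CPM), *Ascl2* (27.8 against 1.96 CPM) and *Gata2* (138 against 27.9 CPM), and 1 was lower. The sum of all 16 trophoblast genes was not higher, at 1264 CPM against 1336 CPM in the other cells, with *Hand1* at 756 and 993 CPM in these sums. The factors that define trophoblast stem cells were lacking, with *Elf5* at 0 UMIs and *Eomes* at 0 UMIs in the d2 EB set and at 3 and 0 UMIs in the d4 EB set. The cells are therefore called by their markers and not trophoblast. In R1 no PGCLC were listed, and the trophoblast-marker cells also had more UMIs of 8 PGC genes together than the other cells (490 against 194 CPM in WT, 536 against 348 CPM in dCD). The part of PGC-like cells in the R1 values was not tested.

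In d2 EB, *Cdx2* was lower in the trophoblast-marker cells than in the 372 other cells, at 105 CPM (92.7 to 118) against 299 CPM (288 to 311), a ratio of 0.351 (0.308 to 0.398). A *Cdx2* UMI was found in 51 of 74 against 351 of 372 cells, and in thinned cells in 54.8% (42.7% to 66.5%) against 92.1% (88.8% to 94.7%), with 1 and 17 shallower cells left out. The trophoblast-marker cells were deeper, with a median of 31802 against 23109 UMIs. *Cdx4* had the same direction, at 9.39 against 27.9 CPM (ratio 0.336, 0.211 to 0.511). *Cdx1* was at 11.3 against 12.3 CPM, a ratio of 0.920 whose interval of 0.590 to 1.39 includes 1. With stricter markers the gap in *Cdx2* was wider: 21 cells with at least 2 of the 3 marker genes had 40.3 CPM (28.2 to 55.8), and 30 cells with at least 3 marker UMIs had 54.9 CPM (42.5 to 69.9). *Cdx4* had 1 UMI in either of these stricter sets. Of the Hox genes of groups 5 to 9, 13 of 14 were at least 2-fold lower in the trophoblast-marker cells (4.53% of all genes), among them *Hoxd9* (52.0 against 142 CPM).

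The other side of this comparison was mesoderm. In d2 EB, 260 cells had a UMI of the streak factors *T*, *Tbx6*, *Msgn1* or *Mesp1* and 238 cells one of *Tbx4*, *Pitx1* or *Foxf1*, which mark posterior and extraembryonic mesoderm; these sets hold no trophoblast-marker cell and may overlap with each other. *Cdx2* was at 317 CPM (303 to 331) in the streak-marker and 334 CPM (320 to 349) in the posterior-mesoderm-marker cells, with UMIs in 251 of 260 and 235 of 238 cells. Over the trophoblast-marker cells the ratios were 3.02 (2.66 to 3.44) and 3.19 (2.80 to 3.63). *Cdx4* was at 31.4 and 34.3 CPM, with ratios of 3.35 (2.18 to 5.35) and 3.66 (2.39 to 5.84). *Cdx1* was at 13.7 and 12.5 CPM, with intervals that include 1 against the trophoblast-marker cells. In d2 EB the mesoderm sets thus had more *Cdx2* and *Cdx4* than the trophoblast-marker cells, and *Cdx1* was not set apart. The 34 cells with no marker of any set had 130 CPM of *Cdx2* (108 to 155), and the cell with the most *Cdx2* UMIs (29) was one of them. No type lacking *Cdx2* could serve as background in d2 EB, where the 3 endothelial-marker cells all had UMIs of it (29 in all), and the part of free RNA in the lower levels was not tested.

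In d4 EB this difference was not seen at the same size. *Cdx2* was at 25.8 CPM (20.9 to 31.4) in the trophoblast-marker and 29.7 CPM (25.0 to 35.1) in the other cells, a ratio of 0.866 (0.663 to 1.13). The posterior-mesoderm-marker cells were at 32.6 CPM (27.5 to 38.5), a ratio of 1.27 (0.972 to 1.66) over the trophoblast-marker cells. In 40 cells with at least 2 of the 3 trophoblast markers *Cdx2* was at 16.1 CPM (10.9 to 23.1) against 31.2 CPM (27.1 to 35.8) in 284 others, so the d4 result depends on how the cells are picked. As a background, 15 cells with at least 2 of 4 endothelial markers, taken as a type that should lack *Cdx2*, had *Cdx2* UMIs in 3 cells (20.0%, 4.33% to 48.1%) at a median depth of 31843 UMIs, and in 0 of 13 cells after thinning. The trophoblast-marker cells had 34.2% (25.5% to 43.8%) at 28195 UMIs and 25.2% after thinning. *Cdx1* had 10 UMIs in the trophoblast-marker and 3 UMIs in the other d4 EB cells, but 9 of the 10 lay in 1 cell, which also held 98 UMIs of *Rhox6* and 151 of *Rhox9*; without this cell 1 UMI remained.

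In WT, *Cdx2* was at 32.7 CPM (26.8 to 39.6) in trophoblast-marker cells, 63.6 CPM (46.0 to 85.6) in 51 streak-marker cells and 27.7 CPM (24.3 to 31.4) in 633 posterior-mesoderm-marker cells. The streak-marker cells were 1.94-fold higher (1.33 to 2.79) than the trophoblast-marker cells, while the posterior-mesoderm-marker cells had a ratio of 0.846 (0.670 to 1.07). Endothelial-marker cells had 14.1 CPM (4.56 to 32.8), with *Cdx2* UMIs in 4 of 26 cells (15.4%, 4.36% to 34.9%; median depth 13602 UMIs), against 30.1% of trophoblast-marker (23.1% to 37.7%; 16999 UMIs) and 51.0% of streak-marker cells (36.6% to 65.2%; 12024 UMIs). In dCD, *Cdx2* was at 4.29 CPM (2.96 to 6.03) in trophoblast-marker cells, 15.6 CPM (8.72 to 25.7) in 63 streak-marker cells and 13.9 CPM (7.96 to 22.6) in 87 posterior-mesoderm-marker cells, with ratios of 3.63 (1.83 to 6.87) and 3.24 (1.67 to 6.06). The 13 endothelial-marker cells of dCD had 4 *Cdx2* UMIs in 2 cells (15.4%, 1.92% to 45.4%; 11499 UMIs) and 23.5 CPM (6.40 to 60.1). The shares in the 3 sets of dCD were 4.96%, 15.9% and 12.6% (13739, 14800 and 12104 UMIs). With so few cells and UMIs the background cannot place these shares above or below it. The streak-marker cells were thus above the trophoblast-marker cells in d2 EB and WT. The same order was seen in dCD, where the intervals of these levels overlap the wide interval of the background. In d4 EB the 9 streak-marker cells held only 6 *Cdx2* UMIs. The streak-marker cells of R1 were not mesoderm alone. In WT the 8 PGC genes together were at 463 CPM in streak-marker, 490 CPM in trophoblast-marker and 47.4 CPM in posterior-mesoderm-marker cells. In dCD they were at 256, 536 and 83.5 CPM. The part of PGC-like cells in the *Cdx2* level of the streak-marker cells was not tested.

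**Figure D3:**
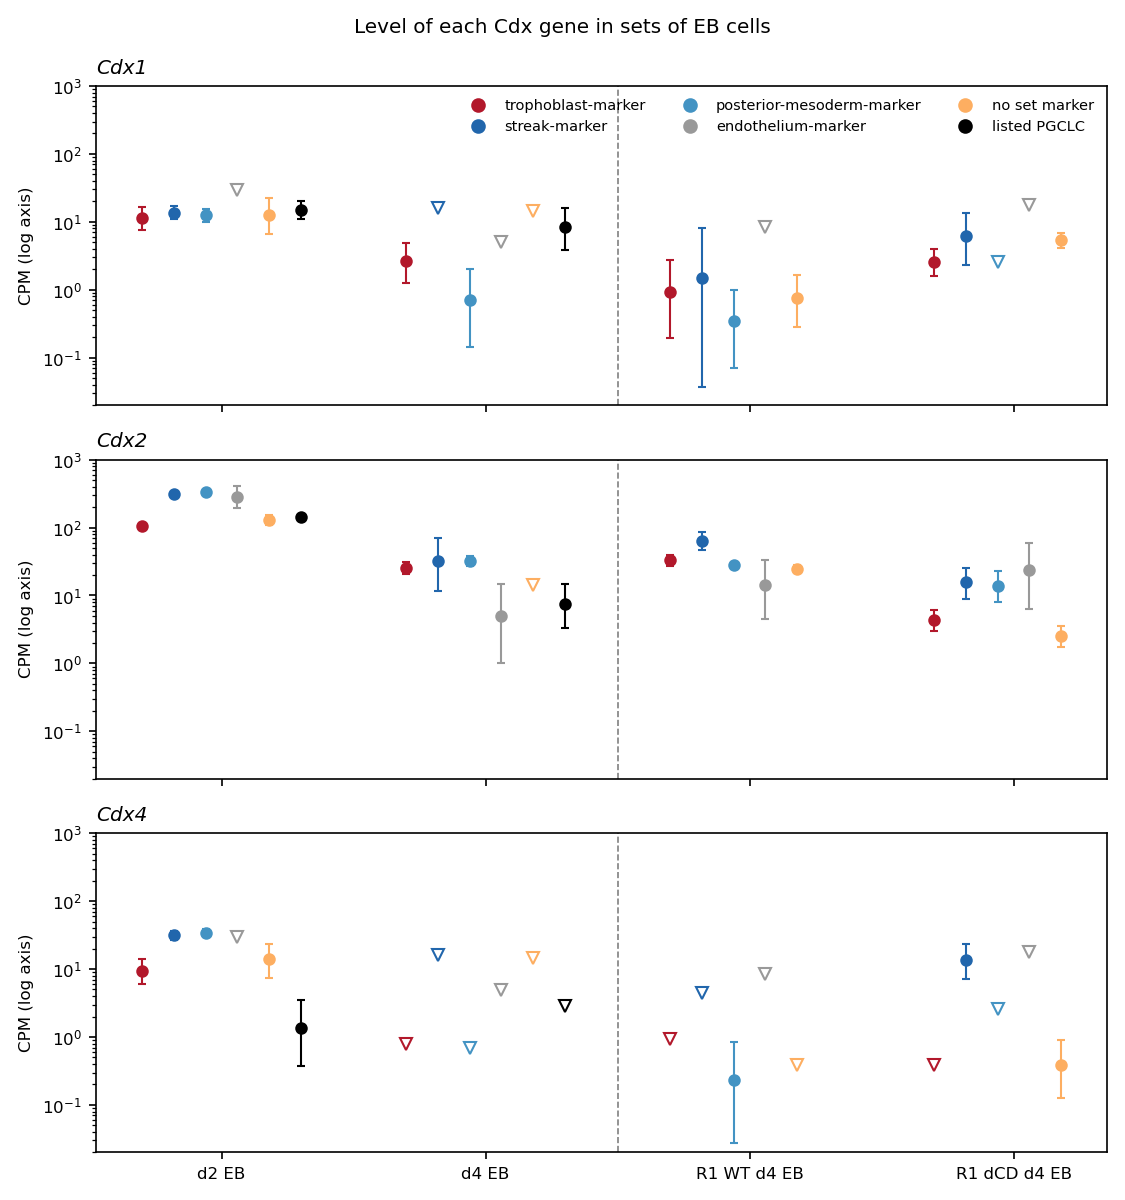
Levels of the Cdx genes in sets of EB cells, in CPM on a log axis with exact 95% Poisson intervals; open triangles mark sets with 0 UMIs at the level of 3 counts, and the dashed line separates E14Tg2a from R1, where no PGCLC are listed. In d2 EB the *Cdx2* points of both mesoderm sets (317 and 334 CPM) lie above those of the trophoblast-marker cells (105 CPM) and the PGCLC (141 CPM).

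The PGCLC, the in vitro counterpart of germ cell precursors, were compared with the remaining cells of their library. In d2 EB, 91 PGCLC had *Cdx2* at 141 CPM (128 to 155) against 257 CPM (248 to 266) in the remaining 446 cells, a ratio of 0.550 (0.495 to 0.609). A *Cdx2* UMI was still found in 64 of 91 PGCLC (70.3%, 59.8% to 79.5%). *Cdx4* had 4 UMIs in the PGCLC, at 1.36 against 23.9 CPM, which is 17.5-fold lower with a ratio of 0.0571 (0.0154 to 0.148). *Cdx1* was at 15.0 CPM (10.9 to 20.1) against 12.1 CPM (10.2 to 14.3), a ratio of 1.24 (0.862 to 1.75). The PGCLC of d2 EB thus had less *Cdx2* and much less *Cdx4* than the cells around them, while *Cdx1* did not differ beyond counting error. Of the Hox genes of groups 5 to 9, 14 of 14 were at least 2-fold lower in the PGCLC (10.3% of all genes), such as *Hoxb6* (1.36 against 44.7 CPM).

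In d4 EB, 44 PGCLC had *Cdx2* at 7.59 CPM (3.27 to 14.9) against 28.0 CPM (24.5 to 31.7), a ratio of 0.271 (0.116 to 0.543), and 0 UMIs of *Cdx4*, as had all other cells. *Cdx1* was at 8.53 CPM (3.90 to 16.2) in 7 of 44 PGCLC against 1.52 CPM (0.810 to 2.60) in 5 of 324 remaining cells, a ratio of 5.61 (2.12 to 14.2). Without the trophoblast-marker cell that held 9 UMIs the remaining cells were at 0.472 CPM, and the log2 ratio was 4.18 in place of 2.49. For each *Cdx1* UMI there were 0.889 *Cdx2* UMIs in d4 PGCLC and 18.4 in the remaining cells, and 9.41 against 21.2 in d2 EB. The 0.889 rests on 8 *Cdx2* and 9 *Cdx1* UMIs. The 18.4 rests on 239 *Cdx2* and 13 *Cdx1* UMIs, and 4 *Cdx1* UMIs remained without the trophoblast-marker cell that held 9. The counts of 2 genes also depend on the capture of each transcript, so these ratios describe detected UMIs. Both sets of PGCLC therefore had fewer *Cdx2* UMIs per *Cdx1* UMI than the summed remaining cells of their library. In d2 EB this was not particular to PGCLC. The trophoblast-marker cells there had 9.24 and the cells with no marker of any set 10.2. The streak-marker cells had 23.1 and the posterior-mesoderm-marker cells 26.7.

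In the dCD mutant the members went in different directions. *Cdx2* was at 4.37 CPM (3.55 to 5.31) in dCD against 27.9 CPM (25.7 to 30.3) in WT, which is 6.39-fold lower with a ratio of 0.156 (0.125 to 0.194), and its UMIs were found in 69 of 1699 against 314 of 1416 cells. After thinning to 6831 UMIs the shares were 2.68% (1.93% to 3.62%) and 13.8% (12.0% to 15.8%), with 170 and 50 shallower cells left out. *Cdx1* was at 4.15 CPM (3.36 to 5.07) against 0.631 CPM (0.336 to 1.08), a ratio of 6.57 (3.67 to 12.8), in 72 against 11 cells. *Cdx4* had 18 UMIs in dCD and 2 in WT, a ratio of 8.10 (1.94 to 71.9), and 8 of the 18 lay in 1 cell. By the call on CPM + 1, *Cdx2* was among the 3.68% of 16272 genes at least 2-fold lower in dCD and *Cdx1* among the 6.31% at least 2-fold higher, while *Cdx4* was not past 2-fold. For each *Cdx1* UMI there were 44.2 *Cdx2* UMIs in WT and 1.05 in dCD.

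*Cdx2* was also lower in dCD within the trophoblast-marker, mesoderm-marker and remaining cells. It was 7.62-fold lower in dCD within trophoblast-marker cells (ratio 0.131, 0.0859 to 0.196) and 6.14-fold lower in cells without these markers (0.163, 0.124 to 0.211). Within streak-marker cells the ratio was 0.245 (0.126 to 0.450), and within posterior-mesoderm-marker cells 0.502 (0.283 to 0.833). The few endothelial-marker cells went the other way, with 4 UMIs in dCD and 5 in WT at 23.5 and 14.1 CPM, and their intervals overlap widely. The trophoblast-marker sets were not alike in dCD and WT. Their summed trophoblast genes were at 550 CPM in dCD and 1065 CPM in WT, where cells without these markers were at 1007 CPM. Their summed extraembryonic mesoderm genes were at 397 CPM in dCD and 983 CPM in WT, and their summed PGC genes at 536 and 490 CPM. The part of such differences in the *Cdx2* ratios was not tested. The posterior-mesoderm-marker set was also smaller in dCD, with 87 of 1699 against 633 of 1416 cells, and the *Cdx2* UMIs per cell with a UMI were 1.45 and 1.61. Fewer cells of a type and less RNA per cell cannot be told apart in the level of all cells. The higher *Cdx1* was found in cells without trophoblast markers (ratio 8.57, 4.41 to 18.6), and within trophoblast-marker cells the interval of 0.825 to 14.6 included 1. Cells with at least 2 trophoblast markers had 4 *Cdx1* UMIs in dCD and 1 UMI in WT. At 1.08 CPM (0.295 to 2.77) and 1.82 CPM (0.0461 to 10.2), these were too few to read a direction. *Cdx4* had 13 UMIs in dCD streak-marker cells and 0 in those of WT, and 5 UMIs without the richest cell.

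**Figure D4:**
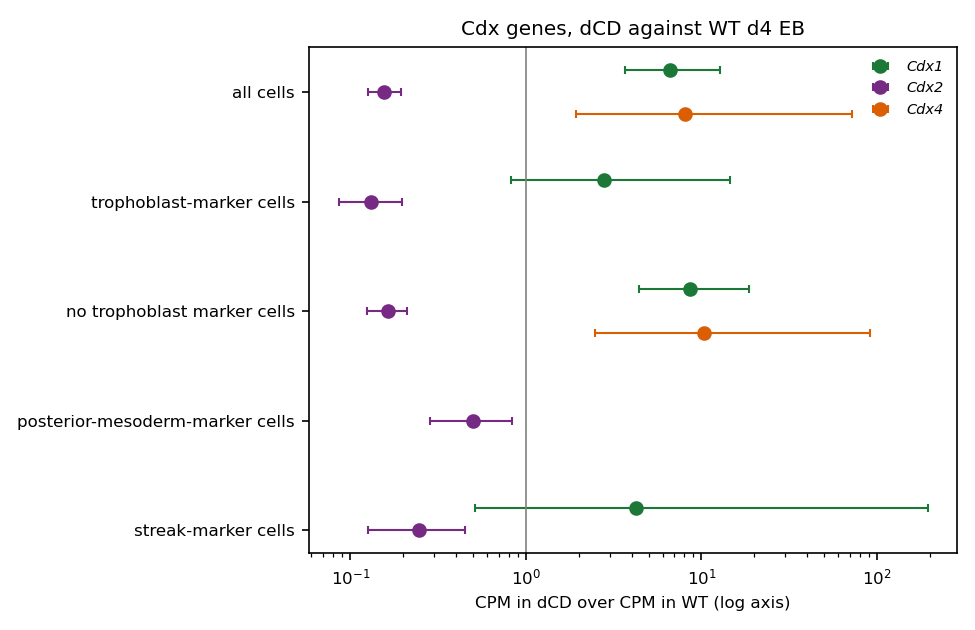
Ratio of CPM in dCD over WT d4 EB for each Cdx gene, on a log axis with exact 95% intervals, in all cells and within sets; no point is drawn where a group had 0 UMIs. The *Cdx2* points lie at 0.131 to 0.502, left of 1, and the *Cdx1* point of all cells at 6.57.

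The cells that carried *Cdx1* and *Cdx2* in dCD differed in their other genes, which were picked after the values were seen. In dCD, 87 of 95 *Cdx1* UMIs lay in the 779 of 1699 cells with a UMI of the naive pluripotency marker *Zfp42*. Their *Cdx1* level was 10.1-fold that of the other cells (4.89 to 24.1). In WT, 11 of 13 *Cdx1* UMIs lay in the 256 of 1416 cells with *Zfp42*. In d4 EB of E14Tg2a the ratio was 11.0 (3.23 to 57.9), with 19 against 3 UMIs, and 5.91 (1.52 to 33.4) without the cell that held 9 of the 19. In d2 EB, the library with the most *Cdx1*, it was 0.894 (0.655 to 1.21), with 70 against 116 UMIs. *Zfp42* was not particular in this. The *Cdx1* ratios in dCD were 10.4 (3.44 to 51.2) for *Pou5f1* and 6.81 (3.42 to 15.4) for *Sox2*, but 0.739 (0.264 to 1.67) for the PGC gene *Dppa3*. In WT the *Cdx1* ratios were 26.4 for *Pou5f1* and 31.1 for *Sox2*, and the intervals for *Nanos3*, *Prdm1* and *Dppa3* included 1. In d2 EB the intervals for *Pou5f1*, *Sox2*, *Nanos3*, *Prdm1* and *Dppa3* all included 1. *Cdx2* was lower in cells with *Zfp42* than in those without, by a ratio of 0.326 (0.1999 to 0.515) in dCD. The direction was the same in WT (0.661, 0.520 to 0.831), d2 EB (0.572, 0.530 to 0.616) and d4 EB (0.619, 0.459 to 0.826), so it was not particular to dCD. It was higher in cells with *Hand1*, a factor of extraembryonic mesoderm and trophoblast giant cells, by a ratio of 10.9 (6.40 to 19.6) in dCD, 2.45 (2.08 to 2.92) in d2 EB, 2.41 (1.67 to 3.59) in d4 EB and 1.18 (0.957 to 1.46) in WT. With *T* the *Cdx2* ratios were 5.42 (3.02 to 9.21) in dCD, 2.77 (1.94 to 3.86) in WT and 1.21 (1.13 to 1.30) in d2 EB. With the trophoblast genes they differed between libraries: for *Plac1* 5.37 in dCD (3.50 to 8.16), 0.764 in WT, 1.39 in d2 EB and 0.994 in d4 EB, and for *Krt7* 3.20 in dCD (1.90 to 5.19), 1.44 in WT (1.10 to 1.86), 0.185 in d2 EB and 0.453 in d4 EB. Cells with a UMI of any gene tend to be deeper, and CPM corrects for depth only in the level.

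The Hox genes of groups 5 to 9 were also lower in dCD, with 12 of 15 past 2-fold (3.68% of all genes were at least 2-fold lower and 6.31% higher), and of groups 10 to 13 with 8 of 12 lower and *Hoxb13* higher (1.31 against 0.0972 CPM). *Hoxb6* was at 1.44 against 26.5 CPM and *Hoxc8* at 2.36 against 30.4 CPM. Of 12 extraembryonic mesoderm genes 9 were lower, led by *Tbx4* (4.98 against 101 CPM). Of 19 streak genes 3 were lower and 0 higher, and *T* was not past 2-fold. Of the Hox genes of groups 1 to 4, 4 of 12 were lower, and of 14 endothelium and blood genes 5 were lower. Of 15 trophoblast genes 3 were lower and 2 higher, namely *Plet1* (12.1 against 2.87 CPM) and *Wnt7b* (6.34 against 2.33 CPM), and of 7 naive pluripotency genes 3 were higher, *Zfp42*, *Esrrb* and *Tfcp2l1*. Genes of several lists were thus lower together with *Cdx2*, and their part in its level was not tested.

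**Figure D5:**
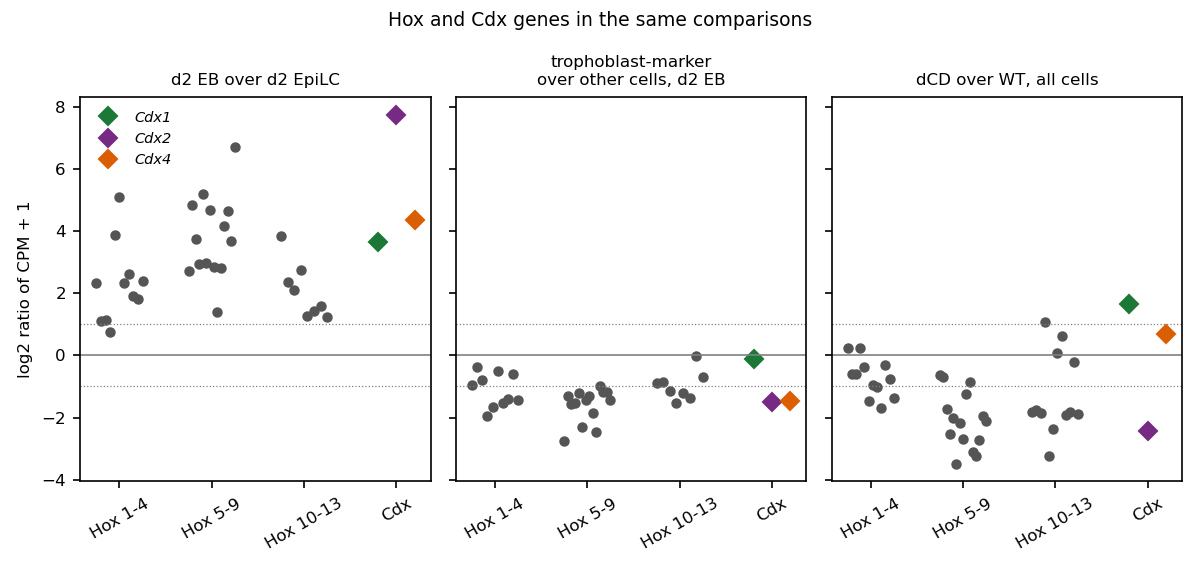
Log2 ratios of CPM + 1 of Hox genes (grey points, 1 per gene with at least 10 UMIs) by paralog group and of the Cdx genes (diamonds), in 3 comparisons; dotted lines mark 2-fold. In dCD over WT 12 of 15 Hox genes of groups 5 to 9 and *Cdx2* lie below the lower line and *Cdx1* above the upper line.

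The genes most like each member were ranked by Pearson's r of log2(CPM + 1) over 12 groups of E14Tg2a cells (6 libraries of ESC, EpiLC and EpiSC, and PGCLC, trophoblast-marker and other cells of each EB library), among genes with at least 100 UMIs. The points share libraries and include several groups near 0, so r is a description. Most like *Cdx2* were *Hoxd9* (r = 0.986), *Fam206a* (0.969), the posterior streak gene *Evx1* (0.959), *Tgfb2* (0.951) and *Wnt5a* (0.951), whose product is a WNT ligand of the posterior embryo. Most like *Cdx1* were *Alpl* (0.911), an alkaline phosphatase of ESC and germ cells, *Cyp2s1* (0.907), *Gm7676* (0.896), *Cmtm6* (0.875) and *Cd79b* (0.874). Most like *Cdx4* were *Sp140* (0.967), *Fgf3* (0.940), an FGF ligand of the streak, *Kcne1l* (0.913), *Pgam2* (0.912) and *E030030I06Rik* (0.906). Between the members r was 0.603 for *Cdx1* and *Cdx2*, 0.562 for *Cdx1* and *Cdx4*, and 0.681 for *Cdx2* and *Cdx4*, below the r of each of these genes. In R1, *Hoxd9* was at 15.1 CPM in WT and 2.71 CPM in dCD, and *Alpl* at 41.6 and 101 CPM. *Cmtm6* was at 18.0 and 16.03 CPM and *Fgf3* at 2.62 and 1.14 CPM, so the likeness seen in E14Tg2a did not extend to every gene in R1.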

How the data were processed

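UMI counts per gene and cell were deposited by the authors as 2 tables without scaling of the counts, 1 of 8 E14Tg2a libraries and 1 of 2 R1 libraries. Per the paper's methods, the E14Tg2a counts were made with Cell Ranger on GRCm38 and aggregated after the libraries had been brought to a common depth of mapped reads; R1 cells with few detected genes were removed by the authors (build mm10), and the counting tool is not given in the sources used here. E14Tg2a cells were assigned to stages by their barcode suffix, and 135 PGCLC by barcode, as the paper's supplement gives them. Symbols for 27645 Ensembl identifiers came from GENCODE on GRCm38.

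UMIs were summed per group and given as CPM with exact 95% Poisson intervals, ratios with exact conditional intervals, and a count of 0 as the limit of 3 counts. Depth ranged from 8757170 to 22887974 UMIs per library. No test across cells was made. Genes were counted as at least 2-fold higher or lower with a pseudocount of 1 CPM and at least 10 UMIs. Endothelial-marker cells had at least 2 of *Cdh5*, *Pecam1*, *Emcn* and *Cldn5*. Cells were thinned without replacement to 15374 (E14Tg2a) or 6831 (R1) UMIs, the 10th percentile of the shallowest library. Doublets (Scrublet in scanpy 1.11.5, 0.441% to 7.61% of a library) stayed in; an alternative removed them. The members and gene lists were chosen with earlier results of these data known. The genes named are the members, the list genes with the largest changes and the 5 genes most like each member; other list genes, motifs, single cells and splits by 1 gene were chosen after their values were seen. Other alternatives changed the level measure, the total, the marker rules and the pseudocount, minimum and fold of the gene counts. Scripts used numpy 2.4.6, pandas 2.3.3 and scipy 1.17.1 (Python 3.11.15) and were tested on simulated data.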

Additional observations from a re-analysis of the deposited data

Results flagged for a closer look

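*Cdx1* in trophoblast-marker cells against the other cells of the same library was set apart because the intervals of 2 libraries lay on opposite sides of 1. The ratio was 4.16 (1.07 to 23.5) in d4 EB of E14Tg2a, from 10 and 3 UMIs, and 0.527 (0.305 to 0.873) in dCD, from 20 and 75 UMIs. In d4 EB 9 of the 10 UMIs lay in 1 cell. The difference between the libraries was not tested, since each is a single library of another line, and line, genotype and kit version cannot be told apart.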

How the results depend on the processing

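Of 354 alternatives to 59 values and ratios, 297 stayed within the 95% counting interval of the reported value and 56 moved out of it. Only 1 reversed a ratio whose interval leaves out 1. It was *Cdx1* in trophoblast-marker over other cells of d4 EB, without the cell richest in *Cdx1*. The causes of the other moves were not tested. Of 184 alternatives to such ratios 183 kept the direction, and among ratios whose interval includes 1 another 6 alternatives changed it. Leaving mitochondrial and ribosomal protein genes out of the total gave *Cdx1* 12.7 CPM in 2i ESC, 5.20 in S+L ESC, 21.6 in d2 EB, 3.71 in d4 EB and 5.96 in dCD, *Cdx2* 397.8 in d2 EB, 41.7 in d4 EB, 37.9 in WT, 6.28 in dCD and 19.9 in EpiSC, and *Cdx4* 33.0 in d2 EB. Averaging each cell's own CPM gave *Cdx2* 254.6 in d2 EB and 29.4 in d4 EB, *Cdx4* 22.0 in d2 EB and *Cdx1* 3.32 in dCD. Thinning gave *Cdx4* 0.487 CPM in d1 EpiLC, *Cdx2* 252.9 in d2 EB, and *Cdx1* 1.18 in d4 EB, 0.322 in WT and 3.26 in dCD. Without the cell richest in the member, an alternative chosen after seeing the data, *Cdx1* in d4 EB was at 1.36 CPM and *Cdx4* in dCD at 0.437 CPM.

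On the log2 scale, thinning gave *Cdx1* -3.48 for d4 over d2 EB, -0.68 for S+L over 2i ESC, 3.95 for PGCLC over remaining cells in d4 EB, -2.27 for trophoblast-marker over other cells in dCD and 2.98 for streak- over trophoblast-marker cells in dCD. It gave *Cdx2* -3.16 for PGCLC in d4 EB, 0.60 for trophoblast-marker over other cells in WT and -0.68 for posterior-mesoderm- over trophoblast-marker cells in WT. The mean over cells gave *Cdx2* in d2 EB -1.30 for trophoblast-marker over other cells, and 1.37 and 1.45 for streak- and posterior-mesoderm- over trophoblast-marker cells. With at least 2 of the 3 trophoblast genes, trophoblast-marker over other cells gave *Cdx2* -2.77 and *Cdx4* -4.52 in d2 EB, *Cdx2* -0.95 in d4 EB, and *Cdx1* -2.13 and *Cdx2* -1.15 in dCD. The same rule gave *Cdx1* -0.75 and *Cdx2* -4.15 for dCD over WT in trophoblast-marker cells. Over these cells, streak-marker cells then had *Cdx2* 2.94 and *Cdx4* 4.82 in d2 EB and *Cdx2* 2.82 in dCD, and posterior-mesoderm-marker cells *Cdx2* 2.98 and *Cdx4* 4.88 in d2 EB, and *Cdx2* 1.05 in d4 EB and 2.93 in dCD. With at least 3 trophoblast UMIs, trophoblast-marker over other cells gave *Cdx2* -2.35 and *Cdx4* -4.995 in d2 EB and *Cdx1* -1.72 in dCD. Over these cells in d2 EB, streak-marker cells had *Cdx2* 2.50 and *Cdx4* 5.25 and posterior-mesoderm-marker cells *Cdx2* 2.54 and *Cdx4* 5.32. Without the richest cell, *Cdx1* in d4 EB was -1.24 for trophoblast-marker over other cells, which reversed the direction, 4.18 for PGCLC over remaining cells and 1.38 for posterior-mesoderm- over trophoblast-marker cells.

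No paired analysis was possible because each condition had 1 library and the labels give no shared replicate numbers. Levels under 1 CPM rest on at most 18 UMIs, and the shares of *Cdx1* and *Cdx4* cells depend on depth.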

Other observations

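The cells richest in a Cdx gene differed in what else they held. The d2 EB cell with 29 *Cdx2* UMIs, the most in that library, also held 4 UMIs of *Cdx1* and 2 of *Cdx4*, 29 of the epithelial gene *Epcam*, 22 of *Krt8*, 21 of *Krt18*, 17 of *Pou5f1* and 14 of *Sox2*, but 1 of *Hand1* and 0 of *T* and of the Hox genes of groups 5 to 9. The EpiSC with 21 *Cdx2* UMIs held 24 of *Pou5f1*, 7 of those Hox genes and 0 of *T*. The WT cell with 23 *Cdx2* UMIs held 20 of *Hand1* and 0 of *T*, *Sox2* and the Hox genes of groups 5 to 9. The d2 EB cell with 10 *Cdx4* UMIs held 18 of *Cdx2*, 51 of *Hand1* and 27 of these Hox genes, and the dCD cell with 7 *Cdx1* UMIs held 106 of naive pluripotency genes, 27 of *Pou5f1* and 11 of *Sox2*. These cells were looked at after the values were seen, and each is 1 cell.

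Of the 71 d2 EB cells without a *Cdx2* UMI, 27 were listed PGCLC, 23 were trophoblast-marker cells and 21 neither, and their median depth was 28098 UMIs against 24127 in the cells with *Cdx2*.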
